A study of Mus musculus with 27 samples.

Results

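The urea cycle genes described here are 7 genes, Cps1, Otc, Ass1, Asl, Nags, Slc25a15 and Slc25a13, taken by their symbols from a table of 21823 genes. They encode enzymes of the cycle (Cps1, Otc, Ass1 and Asl), the enzyme that makes its activator (Nags) and the 2 mitochondrial carriers that serve it. Their mRNA was measured by RNA-seq in lobular zones 1, 2 and 3, cut by laser microdissection from frozen liver sections of wild-type female C57BL/6 mice, which the methods give as the substrain C57BL/6N. They came from mice that were not pregnant (NP) and from mice at 8 or 16 days post coitum (dpc8 and dpc16), with 3 libraries for each stage and zone, 9 groups and 27 libraries in all. No group carried a transgene, a deletion or an injected agent, so NP was the reference for pregnancy. For cell counting, the portal and the central zone are defined as 3 layers of cells around the respective vein, with the parenchyma between them as a further zone. Whether cutting followed the same borders is not said outright, and how many mice went into a library is not given in the sources used here. The labels do not tie libraries to mice, so the p-values below measure the spread between libraries.

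The urea cycle turns the ammonia released from amino acids into urea. It starts in the mitochondria of hepatocytes, where Cps1 makes carbamoyl phosphate, a reaction that needs the N-acetylglutamate made by Nags, and Otc joins this product to ornithine to give citrulline. In the cytosol Ass1 joins citrulline to aspartate and Asl splits the product into arginine and fumarate. Slc25a15 carries ornithine into the mitochondria. Slc25a13, also called citrin, exports the aspartate used by Ass1. In the liver lobule blood flows from the portal vein to the central vein, and the cycle is known for its high activity in periportal hepatocytes, whereas pericentral hepatocytes capture the remaining ammonia as glutamine through Glul.

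The zone labels were checked against marker genes. The mean log2(FPKM + 1) of 7 periportal genes such as Cyp2f2 and Hal was 7.82 to 9.08 in zone 1 and 2.23 to 4.41 in zone 3. That of 9 pericentral genes such as Glul and Cyp2e1 was 3.01 to 3.45 in zone 1 and 7.45 to 8.50 in zone 3. Within each stage the zone 2 libraries lay between those of zones 1 and 3 for both lists. The libraries that stood apart were 6, replicate 1 of NP zone 1, replicate 2 of NP zone 3, replicate 1 of dpc8 zone 1, replicate 2 of dpc8 zone 2, and replicate 3 of both dpc16 zone 2 and dpc16 zone 3. In these 6 libraries 4 Y-linked genes summed to 7.92 to 23.18 FPKM although the mice are labelled female, against at most 2.97 FPKM in the other 21. A list of 11 connective tissue and smooth muscle genes, all of them in the table, averaged 5.01 to 6.37 in the 6 libraries and 1.44 to 4.28 in the other 21 on the log2 scale. The 7 hepatocyte genes in the table averaged 10.83 to 11.44 in the 6 libraries and 11.44 to 13.06 in the others. The sequencing depth read from the steps between low FPKM values was 7.52 to 33.25 M reads (M stands for mega), so that 1 read on a transcript of 1 kb was worth 0.0301 to 0.133 FPKM, far under every member's level.

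The 7 genes lie on 7 different chromosomes of mm10. RefSeq promoter sequences on GRCm38.p6 were matched for 5 of the 7 members (Otc, Ass1, Nags, Slc25a15 and Slc25a13). That of Ass1 is shown because Ass1 was called both between zones and between stages, that of Otc because its zone difference was smaller, and those of Nags and Slc25a13 because neither gene was called between zones. Each line is 5′ to 3′ on the gene's strand and stops at the base before the gene's start. Ass1 lies at chr2:31470020-31470206 on the plus strand, Otc at chrX:10252055-10252304 on the plus strand, Nags at chr11:102145263-102145512 on the plus strand and Slc25a13 at chr6:6217174-6217423 on the minus strand, and capitals mark a match to TGACG on either strand.
Ass1: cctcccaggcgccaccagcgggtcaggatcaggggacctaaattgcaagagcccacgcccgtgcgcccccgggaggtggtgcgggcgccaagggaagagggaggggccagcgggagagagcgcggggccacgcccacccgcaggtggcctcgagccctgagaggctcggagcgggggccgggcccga
Otc: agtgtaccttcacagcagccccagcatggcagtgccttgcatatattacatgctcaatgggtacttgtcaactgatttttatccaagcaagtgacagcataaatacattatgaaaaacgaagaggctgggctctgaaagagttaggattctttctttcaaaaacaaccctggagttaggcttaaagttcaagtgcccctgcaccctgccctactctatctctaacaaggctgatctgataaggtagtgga
Nags: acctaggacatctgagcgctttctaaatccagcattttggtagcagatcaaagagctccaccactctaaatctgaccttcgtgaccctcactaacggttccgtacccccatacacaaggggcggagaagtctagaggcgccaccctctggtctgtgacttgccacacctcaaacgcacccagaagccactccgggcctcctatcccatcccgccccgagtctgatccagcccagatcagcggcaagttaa
Slc25a13: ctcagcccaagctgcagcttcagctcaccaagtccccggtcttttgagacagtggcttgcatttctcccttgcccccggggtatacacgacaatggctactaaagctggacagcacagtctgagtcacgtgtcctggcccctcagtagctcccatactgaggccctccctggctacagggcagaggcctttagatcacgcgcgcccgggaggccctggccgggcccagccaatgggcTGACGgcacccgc

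The windows differed in base composition. Over the 250 bases before the RefSeq start, Ass1 had 75.6% G and C and 23 CpG dinucleotides, whereas Otc had 43.6% and 1. Nags had 55.6% and 11 CpG and Slc25a13 had 62.8% and 11, beside a median of 52.4% and 6 over all 32851 promoters in the table. Motifs searched on both strands, with overlapping matches counted, were the TATA box TATAAA (in 12.37% of all promoters), the HNF4 core CAAAGTC (3.84%), the C/EBP motif TTGCNNAA (9.56%), the cyclic AMP response element core TGACG (17.77%) and the glucocorticoid element core ACANNNTGT (5.84%). Among the members' windows, including that of Slc25a15, the only match was the TGACG of Slc25a13, which says only that these letters are in this window. The 250-base window of Ass1 runs on past the printed bases into the annotated gene, and only the part before the gene's start is printed.

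The members fell into 2 ranges of level, given here as FPKM, which is scaled to transcript length and so can be compared between genes. Cps1, Ass1 and Asl had medians over the 27 libraries of 793, 1175 and 499.6 FPKM. Otc, Slc25a13 and Slc25a15 had medians of 146, 110.2 and 106 FPKM, and Nags had the lowest, 28.1 FPKM. The spread over the 9 group means was widest for Ass1, whose highest group mean was 11.1 times its lowest, and this ratio was 7.59 for Cps1, 7.44 for Asl and 3.23 for Otc. It was 1.76 for Nags, 1.61 for Slc25a15 and 1.504 for Slc25a13.

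The order of the 9 groups was read from the group means, with neighbours called distinct where their means differed by more than the larger of both SDs. The Ass1 mean was highest in NP zone 1 at 2387 ± 788 FPKM (SD, n = 3). NP zone 2, dpc8 zone 1, dpc16 zone 1 and dpc8 zone 2 followed without a step beyond the SD, and dpc16 zone 2, NP zone 3 and dpc8 zone 3 came after a step beyond it. For Cps1, Ass1 and Asl alike the lowest group was dpc16 zone 3, and in all 3 genes it was separated from the next group by more than the SD. Cps1 was 169 ± 95.5 FPKM there and Asl was 110.3 ± 41.9 FPKM (SD, n = 3). Otc was also lowest in dpc16 zone 3, but next to dpc16 zone 2 with no gap beyond the SD. For Nags, Slc25a15 and Slc25a13 none of the 8 steps between neighbouring groups exceeded the SD. The plot of member levels by zone and stage shows these ranges library by library.

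**Figure D1:**
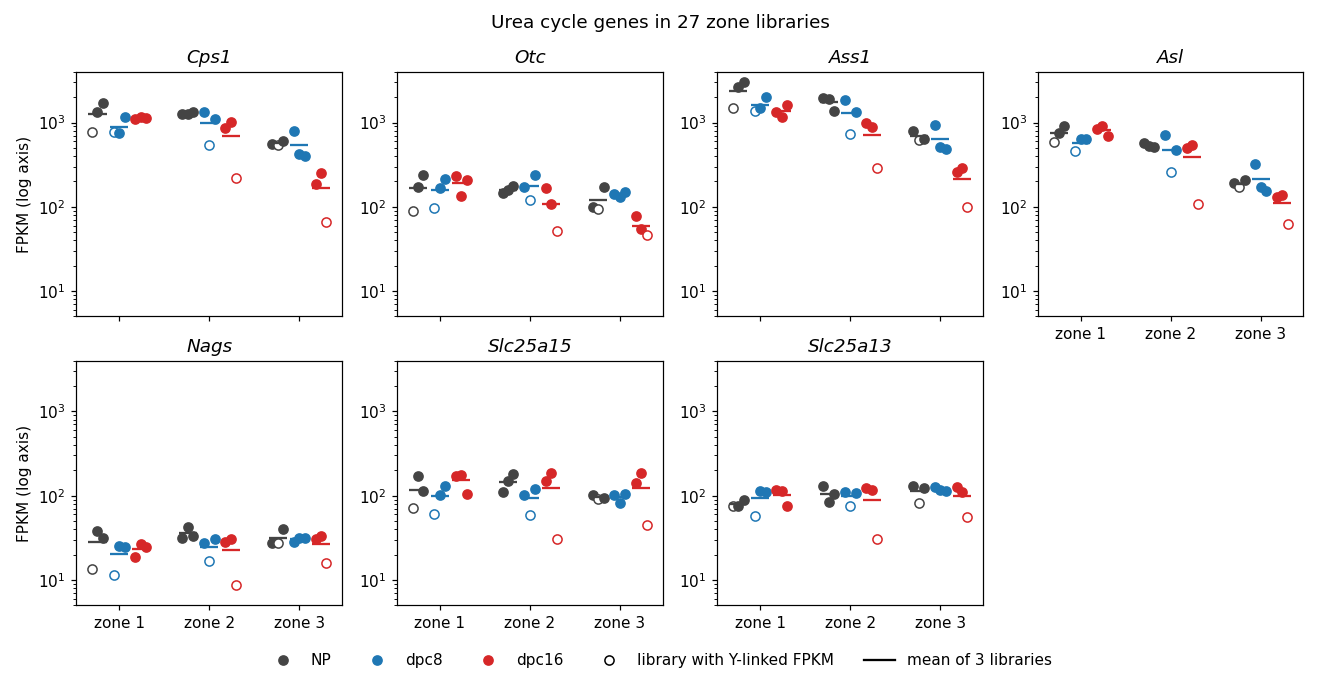
FPKM (log axis) of the 7 urea cycle genes in each of the 27 libraries, by zone on the horizontal axis and by stage in colour, with open circles for the 6 libraries with Y-linked FPKM and a line for the mean of 3 libraries. By group mean, Cps1, Ass1 and Asl were lower in zone 3 than in zone 1 and lowest in dpc16 zone 3. The group means of Nags, Slc25a15 and Slc25a13 differed by at most 1.76 times. Their single libraries ran from 8.75 to 42.3, 30.7 to 186 and 30.6 to 131 FPKM. The open circles were mostly the lowest of their group.

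The 6 libraries that stood apart were the lowest of their group for most members. Otc, Ass1, Asl and Slc25a15 had the lowest value of their group in all 6, and Cps1, Nags and Slc25a13 in 5 of the 6. Results below are therefore also given without them where that changes a call. In bulk samples of this kind, fewer hepatocytes in the cut area and less RNA of a gene per hepatocyte cannot be told apart. These 6 libraries also held Y-linked RNA although the mice are labelled female. The source of that RNA, and whether the labels of these libraries hold, was not tested. A fit with the mean of the connective tissue genes as a covariate lost none of the members' calls reported below and added others.

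The first comparison asked how the members differ between the portal and the central end of the lobule. Averaged over the 3 stages, 3 of the 7 members were higher in zone 1 than in zone 3, namely Cps1, Ass1 and Asl, by 3.03, 3.92 and 4.39 times on the FPKM + 1 scale. None was lower. Of all 12952 genes tested, 5.59% were called in this comparison and 2.70% were higher in zone 1. The median log2 fold change was 0.73 over the 7 members and 0.04 over all genes tested. Log2 fold changes throughout are differences of log2(FPKM + 1) fitted by limma, and a member is called where its Benjamini-Hochberg adjusted p over all genes tested is under 0.05.

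Among the mitochondrial enzymes, Cps1 (chr1:67123026-67231259, plus strand), which commits ammonia to the cycle, had a log2 fold change of 1.60 (SE 0.29, adjusted p = 8.15e-04) between zones 1 and 3. Its FPKM in NP mice was 778, 1341 and 1698 in zone 1 and 553, 548 and 597 in zone 3, in the order of the replicate numbers. At dpc8 it was 764, 753 and 1157 in zone 1 and 793, 428 and 397 in zone 3. At dpc16 it was 1088, 1173 and 1142 in zone 1 and 188, 254 and 66.0 in zone 3. Every NP and dpc16 library of zone 1 was above every zone 3 library of its stage, while at dpc8 replicate 1 of zone 3 lay above replicates 1 and 2 of zone 1. By stage the log2 fold change was 1.10 (SE 0.50) at NP, 0.77 (SE 0.50) at dpc8 and 2.94 (SE 0.50) at dpc16, and it passed the threshold at dpc16 (adjusted p = 0.00102) but not at NP (0.576) or dpc8 (0.56).

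Otc (chrX:10252305-10321024, plus strand), the next enzyme in the mitochondria, had a smaller fitted difference that missed the threshold over the 3 stages, 0.73 (95% interval 0.25 to 1.21, adjusted p = 0.0721). Its FPKM was 89.5, 173 and 238 in NP zone 1 and 101, 95.1 and 170.4 in NP zone 3. At dpc8 it was 97.2, 169 and 216 in zone 1 and 141, 129.6 and 149 in zone 3. The zones overlapped at both of these stages, and the lowest zone 1 library was in each case replicate 1, which stood apart. At dpc16 it was 232, 135 and 210.2 in zone 1 and 78.6, 54.0 and 46.3 in zone 3, with no overlap and a log2 fold change of 1.67 (SE 0.40, adjusted p = 0.0287). This dpc16 call was lost in 4 of the 6 fits that left out 1 library, without replicate 1 or 3 of zone 1 (adjusted p = 0.161 and 0.128) and without replicate 2 or 3 of zone 3 (adjusted p = 0.117 and 0.152). It was also lost with only the groups compared in the fit (adjusted p = 0.0536) and without replicate 3 of dpc16 zones 2 and 3 together (1.51, adjusted p = 0.059). Conversely, the difference averaged over stages was called without the 6 libraries (0.86, adjusted p = 0.00258), and also without replicate 1 of NP zone 1 alone (0.86, adjusted p = 0.0249) or replicate 1 of dpc8 zone 1 alone (0.84, adjusted p = 0.0349). With stage by replicate number as a block it was called as well (0.73, adjusted p = 0.0246 with an estimated correlation).

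Nags (chr11:102145513-102149477, plus strand), which makes the activator of Cps1, showed no called zone difference, with a log2 fold change of -0.34 (95% interval -0.84 to 0.16, adjusted p = 0.572). Its FPKM was 13.7, 38.5 and 31.7 in NP zone 1 and 27.3, 27.4 and 40.3 in NP zone 3, and the groups overlapped. At dpc8 it was 11.3, 25.01 and 24.5 in zone 1, all below the zone 3 values of 28.1, 31.6 and 31.4. At dpc16 it was 18.8, 26.7 and 24.7 in zone 1 and 30.2, 33.6 and 15.7 in zone 3, again overlapping. The interval leaves out a zone 1 excess of the size seen for Cps1. An antisense gene, Gm11586, overlaps Nags, and since the sources used here do not say whether counting used strand, reads of both genes cannot be told apart.

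The cytosolic enzymes Ass1 and Asl had the largest fitted differences of the 7 members between zones 1 and 3 averaged over stages. Ass1 (chr2:31470207-31520672, plus strand), which makes argininosuccinate, had a log2 fold change of 1.97 (SE 0.26, adjusted p = 1.55e-05). Its FPKM was 1497, 2668 and 2996 in NP zone 1 and 796, 623 and 639 in NP zone 3. At dpc8 it was 1374, 1479 and 2012 in zone 1 and 940.5, 512 and 485 in zone 3. At dpc16 it was 1327, 1175 and 1599 in zone 1 and 258, 286 and 99.4 in zone 3. At every stage the lowest zone 1 library lay above the highest zone 3 library.

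Asl (chr5:130011258-130029247, minus strand), which releases arginine and fumarate, had a log2 fold change of 2.14 (SE 0.27, adjusted p = 7.45e-06). It measured 596, 747 and 900.2 FPKM in NP zone 1 and 190.4, 170.5 and 207 in NP zone 3. At dpc8 the values were 466, 631 and 636 in zone 1 and 322, 172 and 152 in zone 3. At dpc16 they were 837, 923 and 702 in zone 1 and 129, 139 and 62.3 in zone 3. The zones did not overlap at any stage, and the narrowest gap was at dpc8, between replicate 1 of zone 1 and replicate 1 of zone 3. Ass1 and Asl, 2 of the 7 members, were thus apart in this direction at all 3 stages, as were 1.06% of all genes tested.

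Within single stages 1 member was called in NP mice, none at dpc8 and 4 at dpc16. The NP call was Asl at 1.96 (SE 0.46, adjusted p = 0.0311), beside 1.34% of all genes tested. This call was lost when any 1 of the 6 NP libraries of zones 1 and 3 was left out, with log2 fold changes of 1.82 to 2.11 and adjusted p of 0.0546 to 0.139. Without the 6 libraries that stood apart, Cps1 and Ass1 were called in NP mice as well, at 1.39 and 1.99 (adjusted p = 0.00894 and 4.12e-04), and leaving out replicate 1 of NP zone 1 alone was enough for Ass1 (2.05, adjusted p = 0.0445). At dpc8 none of the 7 members was called by limma, and 1.61% of all genes were called, while 2 members and 12.2% of all genes had an unadjusted p under 0.05. At dpc8 and without the 6 libraries Ass1 and Asl were called at 1.48 and 1.63 (adjusted p = 0.00271 and 8.58e-04). Without the 6 libraries 1.87% of all genes were called in NP and 2.78% at dpc8. With stage by replicate number as a block Ass1 became called in NP and Asl at dpc8. Of all genes 1.88% and 2.88% were then called with an estimated correlation. At dpc16 the 4 enzymes Cps1, Otc, Ass1 and Asl were called, beside 1.55% of all genes, with log2 fold changes of 2.94, 1.67, 2.80 and 2.96. The members whose libraries did not overlap, all higher in zone 1, numbered 3 at NP, 2 at dpc8 and 4 at dpc16, beside 6.63%, 12.8% and 8.36% of all genes. The members all lower in zone 1 were Nags and Slc25a13 at dpc8, 2 of 7 beside 10.5% of all genes.

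Neither carrier was called between zones. Slc25a15 (chr8:22375551-22398597, minus strand), the ornithine carrier, had a log2 fold change between zones 1 and 3 of 0.23 (95% interval -0.41 to 0.87, adjusted p = 0.823). Over all libraries of zone 1 it ran from 60.4 to 178 FPKM and over those of zone 3 from 44.3 to 184 FPKM. Slc25a13 (chr6:6041218-6217173, minus strand), the aspartate carrier, had a log2 fold change of -0.26 (95% interval -0.74 to 0.22, adjusted p = 0.696). At dpc8 its zone 1 values of 57.8, 112 and 109.9 FPKM all lay below the zone 3 values of 126, 118 and 115, with the widest gap in replicate 1, which stood apart, and at NP and dpc16 the zones overlapped. The intervals of both carriers end below the smallest called difference among the enzymes.

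**Figure D2:**
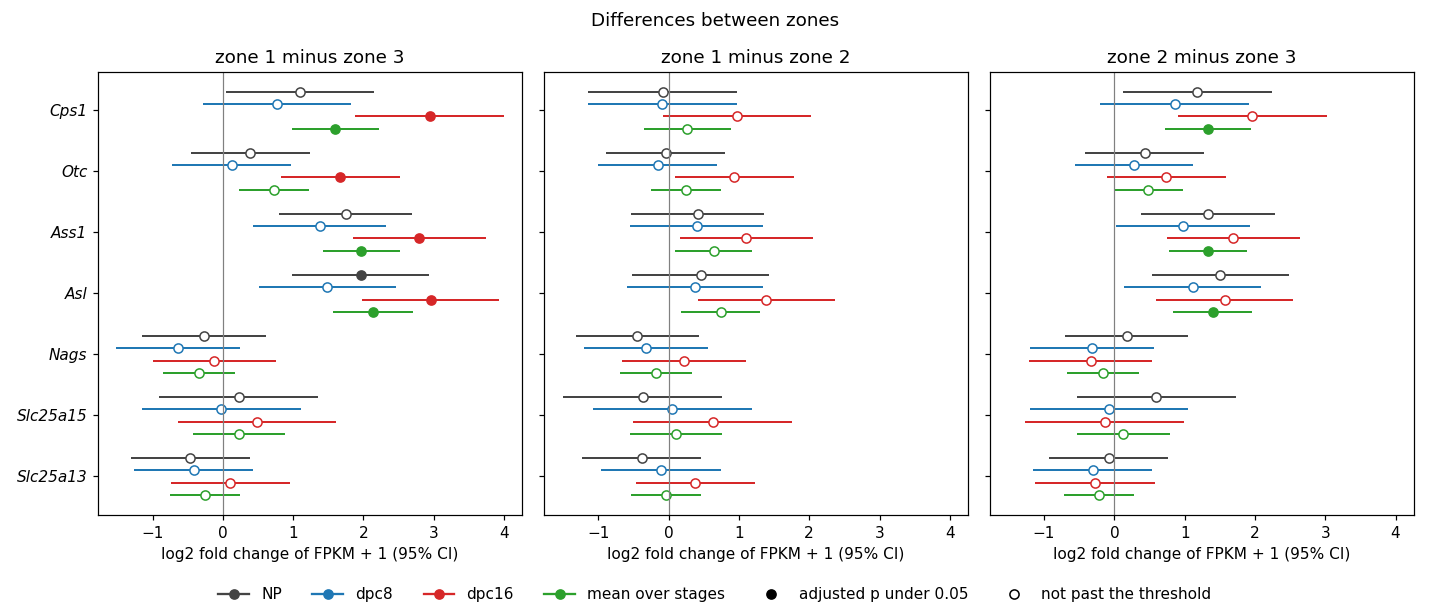
Log2 fold change of FPKM + 1 (horizontal axis) of the 7 genes for each pair of zones, with bars for the 95% interval, colours for the stage or the mean over stages, and filled points where the adjusted p was under 0.05. Averaged over stages, Cps1, Ass1 and Asl were above 0 in zone 1 minus zone 3 (1.60 to 2.14) and in zone 2 minus zone 3 (1.33 to 1.40), and no filled point stands in zone 1 minus zone 2.

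Zone 2, between both ends of the lobule, was then compared with each of them. Averaged over stages, the same 3 members were higher in zone 2 than in zone 3, beside 1.88% of all genes called and 0.811% called higher. The log2 fold changes were 1.33 (SE 0.29, adjusted p = 0.0121) for Cps1, 1.33 (SE 0.26, adjusted p = 0.00453) for Ass1 and 1.40 (SE 0.27, adjusted p = 0.00385) for Asl. Zone 2 held 1259.6, 1254 and 1342 FPKM of Cps1 in NP mice, all above the NP zone 3 values and within the range of NP zone 1. Between zones 1 and 2 none of the 7 members was called by limma, beside 0.919% of all genes, with 2 members and 6.33% of all genes at an unadjusted p under 0.05. The largest of these differences was 0.74 (95% interval 0.19 to 1.29, adjusted p = 0.422) for Asl, followed by 0.64 (95% interval 0.10 to 1.179, adjusted p = 0.58) for Ass1. Otc was at 0.48 (95% interval 0.00 to 0.96, adjusted p = 0.494) between zones 2 and 3.

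At dpc16 the zone 2 values rested on uneven libraries. Replicate 3 of dpc16 zone 2, one of the libraries that stood apart, had 218 FPKM of Cps1, 287 of Ass1 and 109 of Asl, whereas replicates 1 and 2 had 869 and 1005 of Cps1, 984 and 887 of Ass1, and 499.6 and 548 of Asl. That library therefore lay among the zone 3 libraries of its stage for Cps1 and Asl. Its periportal marker mean was 5.59 against 7.57 and 7.87 in replicates 2 and 1, and its pericentral marker mean was 4.57 against 5.43 and 5.38.

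The second question was how the members change with pregnancy. At dpc8 none of the 7 members was called against NP by limma, in any zone or averaged over zones, and none had an unadjusted p under 0.05. Averaged over zones 0.108% of all genes were called, and 0.0309%, 0.00772% and 0.0154% in zones 1, 2 and 3. Averaged over zones, the largest fitted differences were -0.39 (95% interval -0.93 to 0.15, adjusted p = 0.957) for Ass1 and -0.36 (95% interval -0.96 to 0.24, adjusted p = 0.992) for Cps1. In single zones they ran from -0.67 (95% interval -1.79 to 0.44, adjusted p = 0.972) for Slc25a15 in zone 2 to 0.25 (95% interval -0.58 to 1.08, adjusted p = 1) for Otc in zone 3. Averaged over zones, a fall of 1 log2 unit is outside the intervals of all 7 members, while some smaller changes lie inside them.

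At dpc16, averaged over zones, 2 of the 7 members were lower than in NP mice, Ass1 at -1.33 (SE 0.26, adjusted p = 0.0014) and Cps1 at -1.06 (SE 0.29, adjusted p = 0.0177), or 0.397 and 0.479 times the NP level. None was higher. Of all genes tested 11.8% were called and 6.15% were lower. Against these shares the count of 2 of 7 is not read as a result about the members as a group. With stage by replicate number as a block the call of Cps1 was lost (adjusted p = 0.0549 with an estimated correlation). Then 1 member was left, beside 6.80% of all genes called. The median over the members was -0.48 and over all genes -0.01. Without the 6 libraries that stood apart these medians were -0.30 and -0.03, and without replicate 3 of dpc16 zones 2 and 3 alone they were -0.13 and -0.06, so that the members' median moved by more than 1.5 times in both cases. Marker lists also differed between NP and dpc16 without overlap in some zones, and their part in the members' values was not tested. The mean log2(FPKM + 1) of 6 macrophage genes was 4.74 to 5.52 in NP and 2.89 to 4.49 at dpc16 in zone 2, and 3.41 to 3.85 and 2.25 to 3.15 in zone 3. That of 5 stellate cell genes was 4.02 to 4.35 in NP and 2.52 to 3.78 at dpc16 in zone 2, and 3.58 to 4.06 and 3.08 to 3.53 in zone 3. That of the 7 hepatocyte genes was 11.19 to 12.37 and 12.83 to 13.06 in zone 1, that of 6 endothelial genes was 3.10 to 3.69 and 3.85 to 4.47, and that of the 7 periportal genes was 8.33 to 8.81 and 8.82 to 9.08. The same NP libraries serve in the comparisons with dpc8 and dpc16, so their values are given side by side and not as separate evidence. The other members were at -0.48 (95% interval -0.96 to 0.00, adjusted p = 0.216) for Otc, -0.50 (95% interval -1.05 to 0.05, adjusted p = 0.268) for Asl and -0.41 (95% interval -0.91 to 0.09, adjusted p = 0.32) for Nags. Slc25a13 was at -0.12 (95% interval -0.60 to 0.36, adjusted p = 0.823) and Slc25a15 at -0.01 (95% interval -0.66 to 0.63, adjusted p = 0.989).

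The fall of Ass1 is given here by zone. In zone 3 it measured 796, 623 and 639 FPKM in NP mice and 258, 286 and 99.4 at dpc16, so that every dpc16 library was below every NP library. In zone 2 it measured 1935, 1890.0 and 1383 in NP mice and 984, 887 and 287 at dpc16, again without overlap. In zone 1 it measured 1497, 2668 and 2996 in NP mice and 1327, 1175 and 1599 at dpc16, where replicate 1 of NP lay below replicate 3 of dpc16. By zone the log2 fold change was -1.80 (SE 0.45, adjusted p = 0.0473) in zone 3, -1.44 (SE 0.45, adjusted p = 0.0922) in zone 2 and -0.75 (SE 0.45, adjusted p = 0.596) in zone 1. The zone 3 value was the single call by zone among the members, beside 1.32% of all genes called in zone 3, with 1.37% in zone 1 and 2.66% in zone 2. It was lost when any 1 of the 6 libraries of these groups was left out, with log2 fold changes of -2.08 to -1.32 and adjusted p of 0.0588 to 0.206, the weakest without replicate 3 of dpc16 zone 3. It was also lost with no filter on low values (adjusted p = 0.0633), with only the groups compared in the fit (adjusted p = 0.182) and without replicate 3 of dpc16 zones 2 and 3 together (-1.32, adjusted p = 0.0557). Without the 6 libraries that stood apart it was -1.39 (adjusted p = 0.0093), and the zone 1 value was then called too (-1.06, adjusted p = 0.0315).

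The difference of Cps1 was split by zone in the same way. In zone 3 its log2 fold change at dpc16 was -1.94 (SE 0.50, adjusted p = 0.0578), with 553, 548 and 597 FPKM in NP mice and 188, 254 and 66.0 at dpc16. In zone 2 it was -1.16 (SE 0.50, adjusted p = 0.24), with 1259.6, 1254 and 1342 FPKM in NP mice and 869, 1005 and 218 at dpc16. In both zones all dpc16 libraries were below all NP libraries, although neither value passed the threshold. In zone 1 it was -0.09 (95% interval -1.13 to 0.95, adjusted p = 0.96), with dpc16 values of 1088, 1173 and 1142 FPKM inside the NP range. In zone 3 the difference was called without replicate 2 of dpc16 zone 3 (-2.33, adjusted p = 0.0473) and without the 6 libraries (-1.39, adjusted p = 0.00781). It was also called without replicate 3 of dpc16 zones 2 and 3 together (-1.37, adjusted p = 0.0483) and with stage by replicate number as a block (-1.94, adjusted p = 0.0422 with an estimated correlation). Otc and Asl in zone 3 were also below NP in every dpc16 library, at -1.005 (95% interval -1.84 to -0.17, adjusted p = 0.291) and -0.85 (95% interval -1.81 to 0.10, adjusted p = 0.524), and neither was called. Members apart in zone 3 with all libraries lower numbered 4 of 7, beside 8.87% of all genes.

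At dpc16 libraries with the same replicate number deviated together, so a fit with stage by number as a block was also made. With this block the fall of Cps1 averaged over zones lost its call (-1.06, SE 0.33, adjusted p = 0.0549 with an estimated correlation), while that of Ass1 kept it (-1.33, SE 0.31, adjusted p = 0.00879). Without the 6 libraries that stood apart Ass1 was at -1.11 (adjusted p = 8.01e-05) and Cps1 at -0.75 (adjusted p = 0.00186), beside 17.9% of all genes called. Without replicate 3 of dpc16 zones 2 and 3 together Cps1 was at -0.64 (adjusted p = 0.0346), less by more than 1.5 times. Alb, the albumin gene, took 15.18% to 20.97% of the summed FPKM in the 7 dpc16 libraries that did not stand apart, beside 3.71% to 11.98% in NP and 4.20% to 10.68% at dpc8. With each library scaled to its FPKM sum without Alb, Ass1 was at -1.59 and Cps1 at -1.32, and Otc, Asl and Nags were called lower as well. Under this scaling 17.7% of all genes were called, 14.9% were called lower and the median over all genes was -0.20. The count of 5 of 7 is read against these values.

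Against dpc8, dpc16 was lower for 1 of the 7 members averaged over zones, Ass1 at -0.95 (SE 0.26, adjusted p = 0.0201), beside 11.1% of all genes called. This call was lost with the stage by number block (adjusted p = 0.0734 with an estimated correlation), and its value was -0.60 without replicate 3 of dpc16 zones 2 and 3, less by more than 1.5 times. Otc was at -0.58 (95% interval -1.06 to -0.10, adjusted p = 0.117) and Cps1 at -0.70 (95% interval -1.30 to -0.10, adjusted p = 0.131), neither called, and Otc was called without replicate 1 of dpc16 zone 2 (-0.71, adjusted p = 0.0479). Without the 6 libraries that stood apart Otc, Cps1 and Ass1 were called lower at -0.57, -0.44 and -0.76 (adjusted p = 0.0242, 0.0454 and 0.00217), and Slc25a15 was called higher at 0.56 (adjusted p = 0.0162). These 4 of 7 members stand beside 19.7% of all genes called without the 6 libraries. Slc25a15 was at 0.29 (95% interval -0.35 to 0.94, adjusted p = 0.65) with all libraries, at 0.77 (adjusted p = 0.0126) without replicate 3 of dpc16 zones 2 and 3, and at -0.0009 (adjusted p = 0.999) with scaling without Alb.

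**Figure D3:**
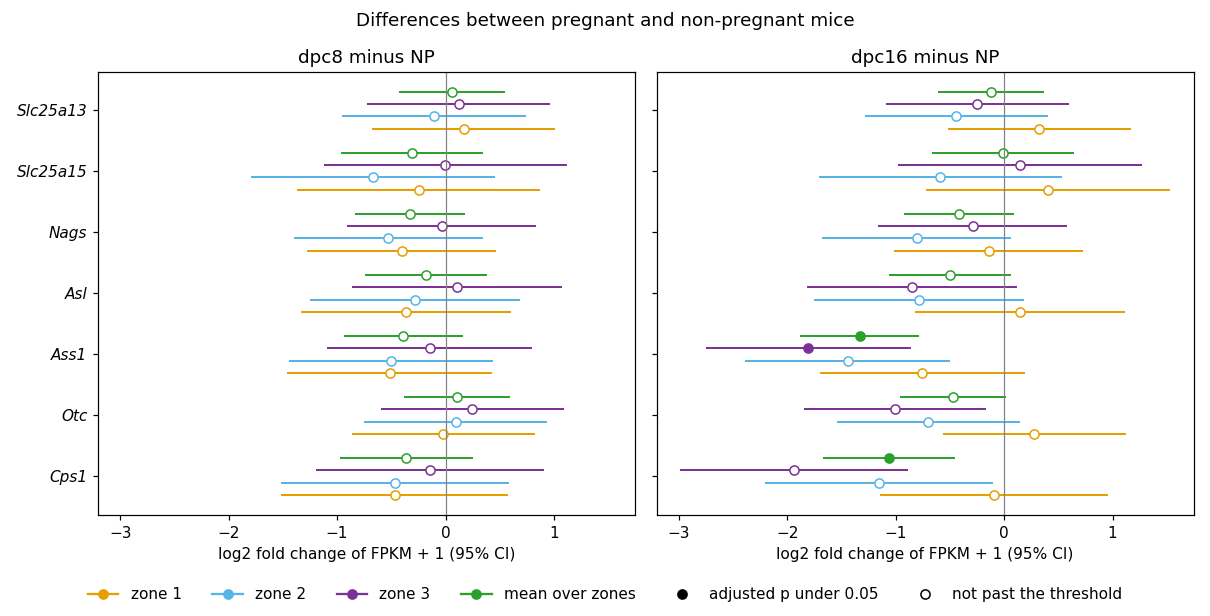
Log2 fold change of FPKM + 1 (horizontal axis) of the 7 genes at dpc8 and dpc16 against NP, with bars for the 95% interval, colours for the zone or the mean over zones, and filled points where the adjusted p was under 0.05. No point is filled at dpc8, and at dpc16 the filled points are Ass1 in zone 3 (-1.80), Ass1 averaged over zones (-1.33) and Cps1 averaged over zones (-1.06).

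Whether the zone difference itself changed with pregnancy was tested as an interaction. From NP to dpc16 the zone 1 minus zone 3 difference of Cps1 grew by a fitted 1.84 (95% interval 0.37 to 3.32, adjusted p = 0.993) and that of Otc by 1.28 (95% interval 0.11 to 2.46, adjusted p = 0.993). Without the 6 libraries that stood apart these values were 0.98 (SE 0.37, adjusted p = 0.999) and 0.88 (SE 0.42, adjusted p = 0.999), for Cps1 less by more than 1.5 times. None of the 7 members was called by limma, 2 of them and 3.16% of all genes had an unadjusted p under 0.05, and 0.0540% of all genes were called. From NP to dpc8 none of the members was called by limma, 0% of all genes were, and no member had an unadjusted p under 0.05, with a median over the members of -0.33. A larger zone difference at dpc16 than in NP mice was therefore not shown for any member, although the number of called members was larger at dpc16.

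Ratios between members within a library do not depend on how the library was scaled, and they were compared for all 21 pairs of members as a description, without a test. In 1 of the 21 pairs, Ass1/Asl, every dpc16 library was below every NP library in all 3 zones. Of all pairs of the 11030 tested genes above 0 FPKM in every library, 2.86% were apart in this way in either direction, so the count is not read as a result about the members as a group. At dpc8 no pair was apart from NP in all 3 zones, beside 0.190% of all pairs. The ratio Ass1/Asl was 2.51, 3.57 and 3.33 in NP zone 1 and 1.59, 1.27 and 2.28 in dpc16 zone 1. In zone 2 it was 3.34, 3.62 and 2.69 in NP mice and 1.97, 1.62 and 2.63 at dpc16, where replicate 3, which stood apart, came close to the lowest NP library. In zone 3 it was 4.18, 3.65 and 3.09 in NP mice and 2.00, 2.05 and 1.60 at dpc16. Between zones 1 and 3 the ratio of these cytosolic enzymes overlapped at every stage.

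The ratios that involve Cps1 differed by zone. Cps1/Asl was 2.90, 3.22 and 2.89 in NP zone 3 and 1.45, 1.83 and 1.06 in dpc16 zone 3, with no overlap, and in zone 2 the dpc16 libraries were likewise all below the NP libraries. In zone 1 it was 1.31, 1.79 and 1.89 in NP mice and 1.301, 1.27 and 1.63 at dpc16, which overlapped. Cps1/Ass1 was 0.520, 0.503 and 0.567 in NP zone 1 and 0.820, 0.998 and 0.714 in dpc16 zone 1, all higher at dpc16, and it overlapped between these stages in zones 2 and 3. Both ratios were lower in zone 1 than in zone 3 in every library of NP and dpc8 mice and overlapped between these zones at dpc16. Between zones 1 and 3, 11 of the 21 pairs, which share members, were apart at all 3 stages, beside 2.51% of all pairs.

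**Figure D4:**
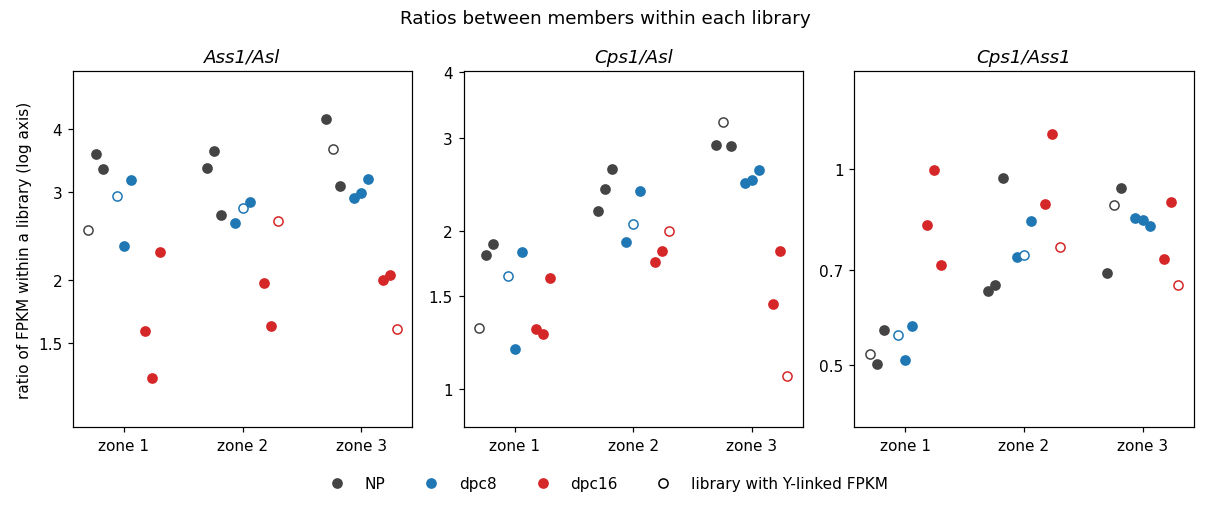
Ratio of FPKM of 2 members within each library (log axis) for Ass1/Asl, Cps1/Asl and Cps1/Ass1, by zone on the horizontal axis and by stage in colour, with open circles for the 6 libraries with Y-linked FPKM. For Ass1/Asl the 3 dpc16 libraries lie below the 3 NP libraries in each zone, for Cps1/Asl they do so in zones 2 and 3, and for Cps1/Ass1 they lie above them in zone 1.

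Together the 7 members made up 0.624% to 0.861% of the summed FPKM in NP zone 1 and 0.282% to 0.314% in NP zone 3. At dpc16 they made up 0.384% to 0.440% in zone 1 and 0.0680% to 0.127% in zone 3, the lowest share of any group. In zone 1 every dpc16 library had a smaller share than every NP library, while the FPKM sum of the members, 3724 to 3859 at dpc16 and 3121 to 6067 in NP, overlapped. The FPKM sum of all genes was 499866 to 704327 in the NP libraries and 523854 to 988500 in the dpc16 libraries.

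Of 44 related genes, which supply ammonia, bicarbonate or aspartate, use ornithine, capture ammonia, carry urea or water, or regulate the members, 39 passed the filter on low values. Averaged over stages, 5 were higher and 5 lower in zone 1 than in zone 3, or 10 of 39 beside 5.59% of all genes called, with a median of -0.04. Higher were the periportal glutaminase Gls2 (4.69 (SE 0.32)), the water channel Aqp8 (2.78 (SE 0.41)), the aspartate aminotransferase Got1 (1.47 (SE 0.31)) and the cationic amino acid transporter Slc7a2 (1.177 (SE 0.31)). Lower were the glutamate transporter Slc1a2 (-6.68 (SE 0.28)), the ornithine aminotransferase Oat (-6.10 (SE 0.36)), the glutamine synthetase Glul (-5.32 (SE 0.25)) and the ammonium transporter Rhbg (-4.35 (SE 0.22)), all of which also belong to the pericentral marker list.

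At dpc16 against NP, averaged over zones, 2 of the 39 related genes were higher and 9 lower, or 11 of 39 beside 11.8% of all genes called, with a median of -0.29 beside -0.01 over all genes. Higher were Slc1a2 (1.10 (SE 0.28)) and Odc1, the first enzyme of polyamine synthesis from ornithine (0.61 (SE 0.20)). The lower genes with the largest changes were Gls2 (-1.99 (SE 0.32)), Aqp8 (-1.58 (SE 0.41)), the mitochondrial carbonic anhydrase Car5a, which supplies bicarbonate to Cps1 (-1.47 (SE 0.29)), and Slc7a2 (-1.39 (SE 0.31)). At dpc8 none of the 39 was called by limma and none had an unadjusted p under 0.05 in the mean over zones.

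The genes whose pattern was most like that of each member were read from Pearson's r of log2(FPKM + 1) over the 27 libraries, which share zone, stage, scaling and the libraries that stood apart, so r is a description only. For Cps1 they were Ass1 (0.96), Pigr (0.95) and Asl (0.92), and for Ass1 they were Pigr (0.97), Cps1 (0.96) and Asl (0.93). Asl was most like Fbp1 (0.94), Slc3a1 (0.93) and Uroc1 (0.93). For Otc they were Mdh1 (0.94), Maob (0.92) and Wfdc21 (0.91). Nags was most like Hgd (0.90), Cideb (0.90) and Suox (0.90). Slc25a13 was most like Abcd3 (0.95), Decr2 (0.94) and Chdh (0.93), and Slc25a15 was most like Mrps31 (0.93), Lgals9 (0.91) and Reep6 (0.90). Mrps31 lies next to Slc25a15 on chr8, on the opposite strand, with 12764 bases between the starts of these genes. Between members r ran from 0.19 for Asl with Nags to 0.96 for Cps1 with Ass1.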

How the data were processed

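The authors depleted ribosomal RNA, trimmed reads with cutadapt, aligned them to mm10 with HISAT2 2.1.0 and computed FPKM for each library with Cuffdiff of Cufflinks 2.2.1. The deposited FPKM values, 1 column for each of 27 libraries, were used as they stand. Groups came from the sample titles. From these values log2(FPKM + 1) was computed, genes reaching 1 FPKM in 3 or more libraries were tested (12952 of 21823), and limma 3.58.1 in R 4.3.3 fitted a mean to each of the 9 groups with trend and robust settings. Such fold changes understate the change of low genes. Tests were two-sided, with Benjamini-Hochberg adjustment within each comparison over all genes tested and a threshold of 0.05. The procedure was tested on simulated data. Means over stages and over zones are contrasts of the same fit.

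No read counts were used. Depth was estimated from whole steps between FPKM values under 5 reads, on which 90.32% to 96.96% of values lay within 0.1 read. Libraries with over 5 FPKM of Y-linked genes were taken to stand apart. Gene positions came from the GENCODE annotation of the same build and promoter sequences from RefSeq (GRCm38.p6).

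Replicate numbers recur in all groups. Deviations from the group means were correlated between zones within a stage. Libraries with one number had r over 0.1 in 9 of 9 cases at dpc16 (0.26 to 0.86, median 0.36), 4 of 9 in NP and 5 of 9 at dpc8. Between stages, within a zone, this held in 4, 3 and 4 of 9 cases in zones 1, 2 and 3, with r up to 0.68 in zone 1. The 9 cases of a stage share libraries, and replicate 3 of dpc16 zones 2 and 3 both stood apart. What part these libraries have in the r at dpc16 was not tested. The block of stage by number, fitted over all 3 stages, is therefore given as an alternative only. In the sample titles the number follows the letters ex, and the study's captions describe the zone data as 3 independent experiments. No label ties a number to a mouse.

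One further gene of the set is not reported here. The members, the related genes and the tests were chosen with earlier results of these data known. All 7 members are named in every comparison, up to 4 related genes per direction by fold among those called, and the 3 genes most like each member. The ratios between members were chosen after values were seen. Alternatives were another pseudocount (0.1), no filter, quantile and median-ratio scaling, a connective tissue covariate, a replicate block, fits of the groups compared alone, and fits without each library in turn or without the 6 libraries. The median-ratio factors were only -0.06 to 0.05 on the log2 scale, so this alternative could change little.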

Additional observations from a re-analysis of the deposited data

How the results depend on the processing

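No called value changed sign under any alternative. Of 152 called values recomputed under alternatives other than leaving out 1 library, 145 stayed called and 7 did not, and 66 values became called; of 198 recomputed without 1 library, 182 stayed called, 16 did not and 5 became called. Values never past the threshold changed sign in 67 and 75 cases. The calls of Cps1, Ass1 and Asl averaged over stages, in zone 1 and in zone 2 against zone 3, and of Ass1 at dpc16 against NP averaged over zones held in every alternative run. The alternatives chosen after seeing the data were leaving out replicate 3 of dpc16 zones 2 and 3 together, and scaling without Alb.

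The number of members called moved by more than 1.5 times in these cases, and their causes were not tested. For zone 1 against zone 3 in NP (1 as reported) it was 2 with quantile normalization, 2 with median-ratio scaling, 3 with the connective tissue covariate, 3 without the 6 libraries, 2 without both dpc16 libraries and 2 with scaling without Alb. At dpc8 (0 as reported) the same alternatives gave 2, 0, 3, 2, 2 and 2. For zone 1 against zone 2 averaged over stages (0) the covariate gave 2. For dpc16 against NP, zone 1 (0) gave 1 with quantile normalization, the covariate and without the 6 libraries, and zone 2 (0) gave 1 with quantile normalization, 2 with the covariate and 2 with scaling without Alb. Zone 3 (1) gave 0 with no filter, 0 with the groups compared alone, 2 with quantile normalization, 2 with median-ratio scaling, 3 with the covariate, 2 without the 6 libraries and 3 with scaling without Alb. In zone 3 without both dpc16 libraries Cps1 was called and Ass1 was not, so that the count stayed at 1. The mean over zones (2) gave 5 with the covariate and 5 with scaling without Alb, where 19.9% and 17.7% of all genes were called, against 11.8% as reported. For dpc16 against dpc8 averaged over zones (1) it was 3 with quantile normalization, 3 with the covariate, 4 without the 6 libraries, 2 without both dpc16 libraries (Ass1 lower and Slc25a15 higher) and 4 with scaling without Alb. The share of all genes called moved as well under these alternatives. It was at most 2.21% for zone 1 against zone 3 in NP, 1.54% to 2.78% at dpc8, 1.64% for zone 1 against zone 2, 1.32% to 3.10%, 2.57% to 6.39% and 0.309% to 4.18% for dpc16 against NP in zones 1, 2 and 3, and 9.71% to 19.7% for dpc16 against dpc8.

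With the replicate block of stage by number, the estimated correlation was 0.19. Zone 1 against zone 3 then had 2 members called in NP (Ass1 and Asl) and 1 at dpc8 (Asl) with either an estimated or a fixed block. Otc became called averaged over stages with both. Of all genes 1.88% and 2.18% were called in NP with the estimated and the fixed block. These shares were 2.88% and 3.54% at dpc8, and 7.87% and 8.10% averaged over stages. With the estimated correlation dpc16 against NP had 2 in zone 3 (Cps1 and Ass1), beside 1.56% of all genes. It had 1 averaged over zones, beside 6.80%, and dpc16 against dpc8 had 0, beside 6.18%. The block changed no other count by more than 1.5 times.

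Leaving out each library in turn gave 0 to 1 members for zone 1 against zone 3 in NP, 3 to 4 at dpc16, 3 to 4 averaged over stages, 0 to 1 for dpc16 against NP in zone 3 and 1 to 2 for dpc16 against dpc8 averaged over zones, while the other counts stayed as reported. Scaling without Alb shifted the median log2 fold change of all genes by over 0.1 in 7 comparisons, to -0.42 for dpc16 against NP in zone 1 and to 0.24 for zone 1 against zone 3 at dpc8. The SE of the members' differences was 0.23 to 0.31 log2 units for means over zones or stages and 0.40 to 0.54 for a single pair of groups. Depth is known only as an estimate, and what it limits was not tested.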
